A study of Mus musculus with 16 samples.

Results

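Fos, Fosb, Jun, Junb, Jund, Egr1, Atf3, Ier2, Nr4a1 and Dusp1 are immediate early genes, chosen by name as a set of rapid response genes, many of them coding for subunits of the AP-1 transcription factor or for related factors. They are 10 of the 47643 genes in the files, and all 10 had counts in each of the 16 libraries and passed the filter on low counts. The libraries came from C57BL/6 wild-type mice and were read at the 3' ends of messenger RNA. BALF are cells of the bronchoalveolar lavage and PLF cells of the peritoneal lavage, both called fresh here, BMDM are macrophages derived from bone marrow and mexAM are alveolar macrophages cultured ex vivo, each from mice 1, 2 and 4. Alveolar macrophages cultured from 2 pools of lavage were sampled as well: pool 1 was taken at passage 8 and again at 13, and pool 2 at passage 5 and again at 10. Neither the number of animals in a pool, nor the age of the mice, the culture media or the passage of mexAM is given in the sources used here. No treatment is named for any group.

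Immediate early genes are transcribed within minutes of a stimulus, without new protein synthesis, when kinase cascades activate factors that already sit at their promoters, such as serum response factor with ELK proteins, and CREB. Their products are short-lived, and several of them shut the response down again: DUSP1 removes phosphate from MAP kinases, and ATF3 represses inflammatory genes in macrophages. In fresh cells these transcripts can also be induced by the handling of tissue during isolation, which is why the set is used as a mark of isolation stress.

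Promoter sequence is shown for 5 members. Fos and Fosb are included because the ratio of these 2 related genes is described below, and Atf3, Nr4a1 and Dusp1 because they were higher in fresh than in cultured cells in both pairs of groups. Each window is from RefSeq (GRCm38.p6) and runs from 250 bases before the transcription start to 50 bases after it, written 5′ to 3′ on the gene's strand. Capitals mark matches, on either strand, to the cyclic AMP response element TGACGTCA, its core TGACG, the AP-1 site TGANTCA, the EGR sites GCGTGGGCG and GCGGGGGCG, the CArG box of serum response factor and the TATA box TATAAA. A full cyclic AMP element always contains the core on both strands.
Fos, chr12:85473640-85473939, plus strand: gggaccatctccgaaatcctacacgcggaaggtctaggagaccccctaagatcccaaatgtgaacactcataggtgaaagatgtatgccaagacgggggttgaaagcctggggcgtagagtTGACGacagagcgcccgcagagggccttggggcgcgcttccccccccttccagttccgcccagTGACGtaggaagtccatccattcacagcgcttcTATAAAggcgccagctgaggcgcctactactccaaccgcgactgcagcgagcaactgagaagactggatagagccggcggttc
Fosb, chr7:19309996-19310295, minus strand: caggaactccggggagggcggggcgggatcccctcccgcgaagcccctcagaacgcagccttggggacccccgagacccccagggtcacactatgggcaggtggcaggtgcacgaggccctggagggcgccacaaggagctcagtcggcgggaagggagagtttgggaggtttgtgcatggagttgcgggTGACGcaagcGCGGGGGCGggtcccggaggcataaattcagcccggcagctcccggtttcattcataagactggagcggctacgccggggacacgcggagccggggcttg
Atf3, chr1:191183284-191183583, minus strand: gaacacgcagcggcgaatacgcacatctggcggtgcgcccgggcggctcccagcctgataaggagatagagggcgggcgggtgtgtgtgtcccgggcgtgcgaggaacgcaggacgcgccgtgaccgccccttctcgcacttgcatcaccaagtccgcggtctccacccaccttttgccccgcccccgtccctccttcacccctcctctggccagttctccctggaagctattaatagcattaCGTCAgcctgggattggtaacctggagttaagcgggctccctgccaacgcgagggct
Nr4a1, chr15:101266596-101266895, plus strand: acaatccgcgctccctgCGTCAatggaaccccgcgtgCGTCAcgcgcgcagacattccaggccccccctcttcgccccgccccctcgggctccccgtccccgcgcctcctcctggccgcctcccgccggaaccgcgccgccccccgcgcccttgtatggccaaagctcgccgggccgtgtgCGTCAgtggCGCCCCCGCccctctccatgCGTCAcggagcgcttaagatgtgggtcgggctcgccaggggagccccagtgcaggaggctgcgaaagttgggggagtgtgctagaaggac
Dusp1, chr17:26508423-26508722, minus strand: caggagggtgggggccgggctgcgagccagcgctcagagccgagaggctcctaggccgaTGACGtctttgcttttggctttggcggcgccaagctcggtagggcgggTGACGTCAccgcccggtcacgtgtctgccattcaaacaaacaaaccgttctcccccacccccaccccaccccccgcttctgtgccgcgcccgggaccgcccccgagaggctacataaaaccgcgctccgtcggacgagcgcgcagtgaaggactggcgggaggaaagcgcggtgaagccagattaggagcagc

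Windows of 8 members were searched, those of Fos, Fosb, Jun, Junb, Jund, Atf3, Nr4a1 and Dusp1. No window of Egr1 or Ier2 was searched. The Jund window (chromosome 8, 70697489 to 70697788) ended before the gene start in the annotation used for the counts (70698949). The windows of Atf3, Nr4a1 and Dusp1 lay inside the genes of that annotation, away from their outermost starts (191218039, 101254269 and 26562128). The cyclic AMP core was present in 6 of the 8, against 20.8% of the 32851 windows of the same length in the RefSeq table. Nr4a1 held 4 cores, and Dusp1 held the full element at positions -143 to -136 from the transcription start (first transcribed base +1), where 1.79% of all windows hold a full element. In Fos the cores lay at -129 to -125 and -66 to -62, ahead of a TATA box at -33 to -28. Fosb and Nr4a1 each had an EGR site, at -50 to -42 and at -60 to -52, which 3.47% of all windows hold. The AP-1 site and the CArG box were in 0 of the 8 windows, against 7.81% and 1.63% of all windows. Sequence outside the windows was not searched, so sites farther from the start would not be seen. The TATA box was in 2 of 8 (Fos and Junb, 13.6% of all) and the GC box GGGCGG, which is not capitalised, in 6 of 8 (35.7% of all). The Junb match to the TATA box lay at +1 to +6, on the transcription start used for its window (84978699 to 84978998, minus strand) and not ahead of it. In the annotation used for the counts Junb starts at 84978718, and the match lies ahead of that start. These are letter matches and say nothing of binding.

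Each library held between 827791 and 2884679 counts in genes, so that 1 count was worth 0.347 to 1.21 CPM (counts scaled to a library total of 1000000 over genes). Levels and overlaps below are in CPM, without the composition scaling (TMM) of the fit. Its factors were 0.860 to 0.901 in BALF and 0.970 to 1.11 in the other groups of mice. Changes are log2 fold changes ± standard error from edgeR's quasi-likelihood fit, with composition scaling by TMM, and a gene was called when its Benjamini-Hochberg adjusted p over all genes tested was under 0.05. The sum of 14 alveolar macrophage markers and the peritoneal marker Gata6 followed the labels: the sum was 12554 to 17379.8 CPM in BALF and 12776 to 16022 in mexAM against 476 to 609 in PLF, and Gata6 had counts in PLF and 0 in the other groups. Not all single markers did. Mrc1 was at 475 to 867 CPM in BMDM, against 885 to 911 in BALF. Itgax was at 453 to 497 CPM in BALF, 40.0 to 64.7 in mexAM and 9.67 to 53.9 in BMDM. Adgre1, from the peritoneal list, was at 1313 to 1529 CPM in BMDM and 648 to 719 in PLF. PLF held other cell types: B cell markers summed to 2635 to 2989 CPM and mast cell markers to 2000.3 to 2213, against 109 to 146 and 7.54 to 22.7 in BMDM and at most 4.81 and 5.40 in BALF and 4.94 and 2.32 in mexAM. T and NK cell markers summed to 231 to 268 CPM in PLF and 132 to 252 in BMDM, against at most 3.86 in BALF and 1.74 in mexAM. The BMDM sum was mostly Cd28 (116 to 237 CPM), with Cd3e at 0. Trbc2 was at most 0.613 CPM in BMDM and at 64.9 to 84.7 in PLF. The B cell signal of BMDM was mostly Ighm (87.6 to 132 CPM), with Cd79b at 1.84 to 7.54 and Cd79a at 0. The collagen genes Col1a1 (30.2 to 86.4 CPM) and Col1a2 (63.8 to 193.7 CPM) had counts in BMDM and were at most 1.78 CPM in the other groups of mice. Markers of red cells and platelets summed to 39.6 to 644 CPM in BALF, 1602 to 2089.7 in PLF, 843 to 952 in BMDM and 1.46 to 6.39 in mexAM. In PLF and BMDM this sum was mostly Pf4 (1569 to 2056 and 836 to 931 CPM). The haemoglobin gene Hbb-bs was at 20.4 to 421 CPM in BALF, 12.3 to 15.2 in PLF, 1.37 to 4.83 in BMDM and 0.973 to 2.90 in mexAM. Neutrophil markers summed to 2211 to 5837 CPM in BMDM and 356 to 795 in mexAM, against 122 to 149 in BALF and 59.1 to 111 in PLF. In mexAM this sum was mostly S100a8 (97.2 to 390 CPM) and Cxcr2 (160 to 384). S100a9 was at 6.18 to 14.5 CPM there, against 13.9 to 26.4 in BALF, and Ly6g was at 0 in mexAM. Whether these sums stand for cells of those types, and the part of such cells in the results below, was not tested. In bulk RNA fewer cells of a type cannot be told apart from less RNA per cell. PLF of mouse 1 stood apart from the other PLF libraries, where chi-square over degrees of freedom was 19.9 and 23.1 against 2.43 between mice 2 and 4, and with 133467 CPM of the ribosomal RNA locus Gm42418 against 40800.2 and 38115. Such a level of Gm42418 was not particular to that library. BALF of mice 1, 2 and 4 held 110497, 42661 and 135778 CPM, and BMDM 59530, 119606 and 124753.

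In PLF against BMDM, 9 of the 10 members were higher, while 18% of all 10011 genes tested were called higher and 18.4% lower. In BALF against mexAM 3 members were higher (Atf3, Nr4a1 and Dusp1), 1 was lower (Ier2) and 6 were not called, with 14.8% of all genes called higher and 15.2% lower. The median of the members was +1.46 in the first comparison and +0.33 in the second, beside a median of -0.01 over all genes tested in each. The mean of both fresh groups minus the mean of both cultured groups gave 7 of 10 higher and 0 lower (background 20% and 20.7%), from Nr4a1 (+3.01 ± 0.39), Dusp1 (+1.61 ± 0.25), Atf3 (+1.46 ± 0.20), Junb (+1.25 ± 0.22), Egr1 (+1.10 ± 0.28) and Jun (+1.04 ± 0.24) down to Jund (+0.57 ± 0.16). Such a mean can rest on 1 fresh group. Jun, Junb, Jund and Egr1 were not called in BALF minus mexAM. Egr1 was -0.13 there and -0.37 in BALF minus BMDM, against +2.33 in PLF minus BMDM. Summed over the 10 members, BALF held 2107, 2514 and 1898 CPM, mexAM 1304, 1616 and 1352, PLF 1752, 2566 and 4040.1, and BMDM 1109.5, 949 and 1180.4, for mice 1, 2 and 4. PLF of mouse 4 was the highest PLF library for all 10 members, and PLF of mouse 1 the lowest for 8, so the spread within PLF was shared across the set. No library of the other 3 groups was highest for more than 5 members.

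**Figure D1:**
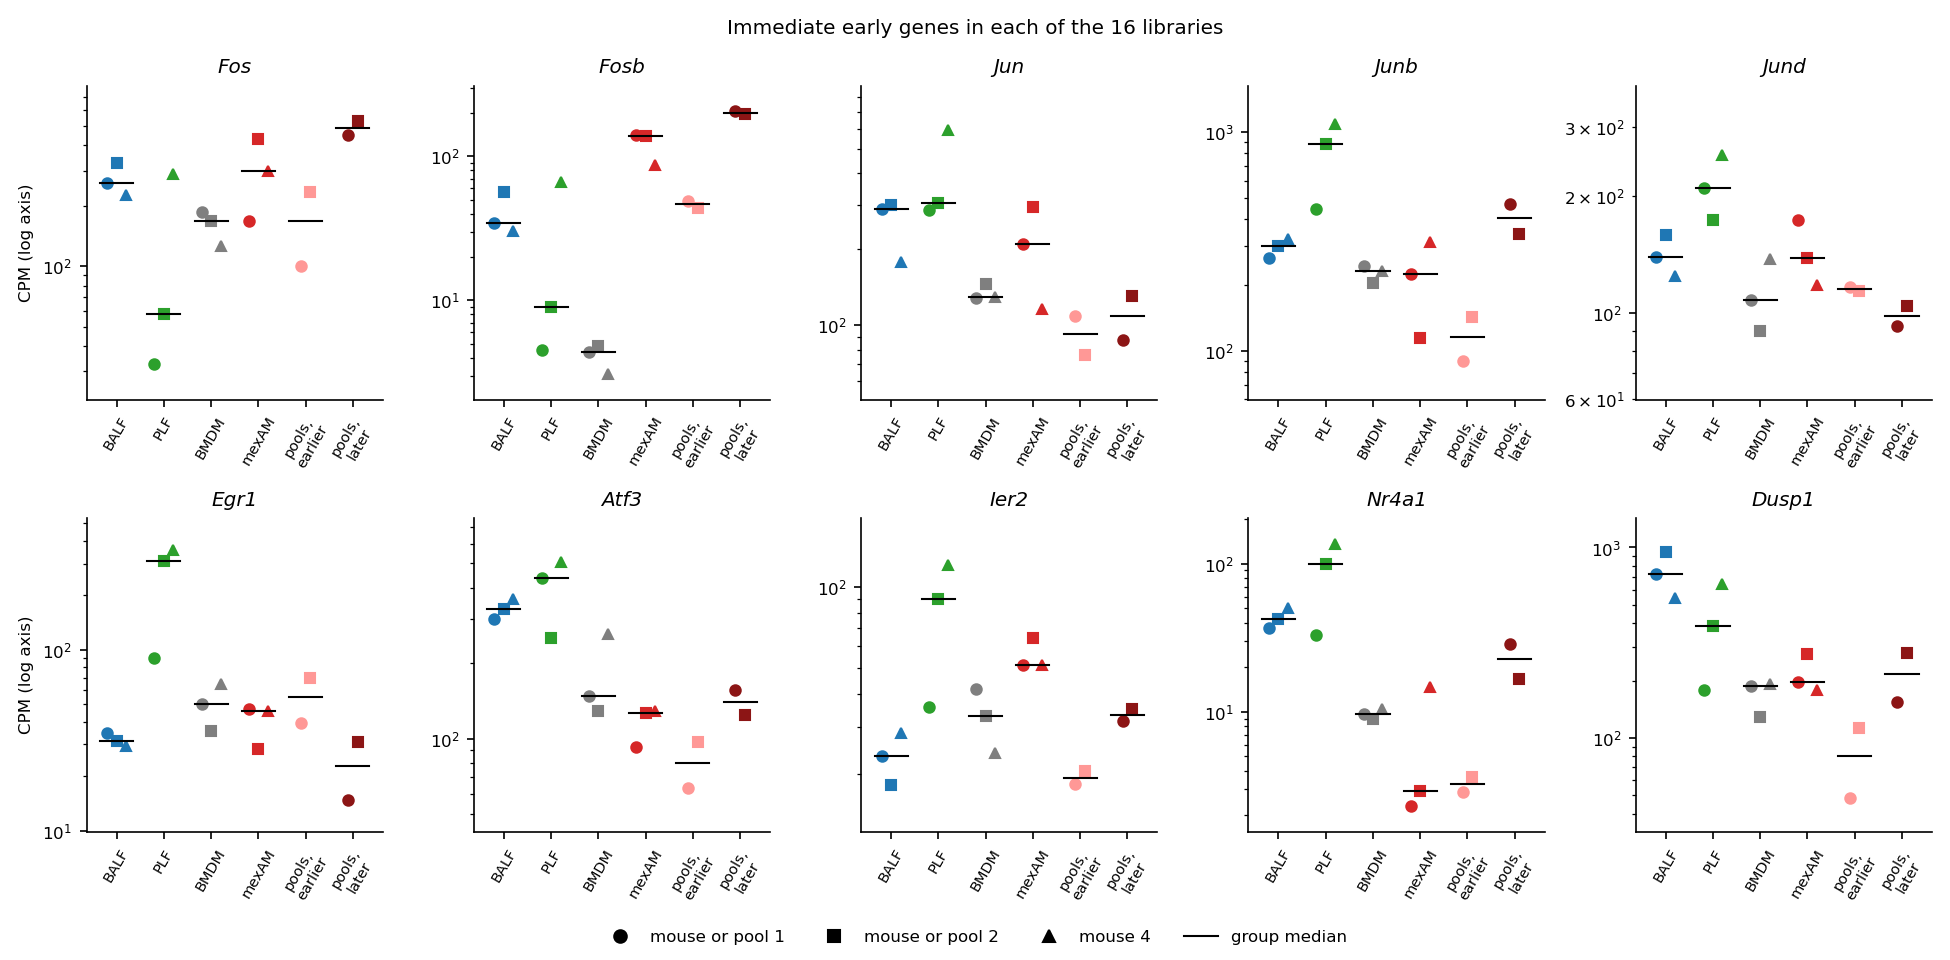
Level of each immediate early gene in every library, in CPM on a log axis; symbols give the mouse or pool, and the line is the group median. Fosb separates mexAM (86.9 to 141 CPM) from BMDM (3.06 to 4.80 CPM), and PLF of mouse 4 lies above the other PLF libraries in every panel.

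Fos, the FOS protein that pairs with JUN proteins to form AP-1 (ENSMUSG00000021250, chromosome 12, 85473890 to 85477273, plus strand, GRCm38), was at 260.1, 329 and 227 CPM in BALF of mice 1, 2 and 4 and at 168, 431 and 297 in mexAM. It was at 32.4, 58.0 and 287 CPM in PLF and 187, 169 and 126 in BMDM. The highest PLF library held 8.85 times the level of the lowest, and mexAM and BALF overlapped. Fos passed the test neither between BALF and mexAM (+0.06 ± 0.59, adjusted p = 0.966) nor between PLF and BMDM (-0.31 ± 0.61, adjusted p = 0.726). The PLF value rested on mouse 4: without that library Fos was lower in PLF than in BMDM (-1.80, adjusted p = 0.00169), than in mexAM (-2.79, adjusted p = 2.16e-05) and than in BALF (+2.85, adjusted p = 3.13e-05 for BALF minus PLF). By median the order was mexAM, BALF, BMDM, PLF, and among neighbours in it BALF and BMDM alone did not overlap.

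Fosb, a close relative of Fos that also pairs with JUN proteins (ENSMUSG00000003545, chromosome 7, 19302696 to 19310051, minus strand), had a different order. It was at 141, 139 and 86.9 CPM in mexAM of mice 1, 2 and 4 and at 34.2, 56.8 and 30.1 in BALF. In BMDM it was near the bottom of the scale at 4.35, 4.80 and 3.06 CPM (9, 7 and 5 counts), and PLF held 4.54, 8.92 and 66.6. All mexAM libraries lay above all BALF and all BMDM libraries. Fosb was higher in mexAM than in BMDM by +4.97 ± 0.80 (adjusted p = 0.000258) and higher in BALF than in BMDM by +3.55 ± 0.84 (adjusted p = 0.00524), and it was lower in PLF than in mexAM (-2.19 ± 0.63, adjusted p = 0.0101), a call that ended without a filter on low counts (-2.20, adjusted p = 0.0565) and was larger without PLF of mouse 4 (-4.25, adjusted p = 2.5e-07). Without that library Fosb was also called higher in BALF than in PLF (+2.84, adjusted p = 5.61e-05 against +0.78 ± 0.67, adjusted p = 0.388 with it). Between BALF and mexAM the change was -1.42 ± 0.62 with adjusted p = 0.104, which did not pass. PLF was above BMDM by +2.77 ± 0.86 (adjusted p = 0.0241), a call that ended without PLF of mouse 4 (+0.72, adjusted p = 0.336), without any 1 of the BMDM libraries (adjusted p = 0.0542 to 0.0837), with mice as a replicate block (adjusted p = 0.0519) and without a filter on low counts (adjusted p = 0.107).

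The ratio of both FOS genes within a library is independent of its depth and scaling. Fosb made up 83.7, 32.2 and 29.3 counts per 100 Fos counts in mexAM, 13.2, 17.3 and 13.3 in BALF, 14, 15.4 and 23.2 in PLF and 2.33, 2.85 and 2.43 in BMDM, for mice 1, 2 and 4. The pool cultures held 49.0 and 45.3 in pool 1 (passage 8, then 13), and 18.5 and 37.4 in pool 2 (passage 5, then 10). Among the groups of mice the ratio was highest in mexAM and lowest in BMDM, with no overlap between mexAM and BALF or between any other group of mice and BMDM. An exact two-sided permutation test of the log2 ratio gave p = 0.1 for mexAM against BALF, mexAM against BMDM and PLF against BMDM, the smallest p that 3 against 3 allow (0.1 also after adjustment over these 3 comparisons). The ratio was chosen after the levels had been seen.

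**Figure D2:**
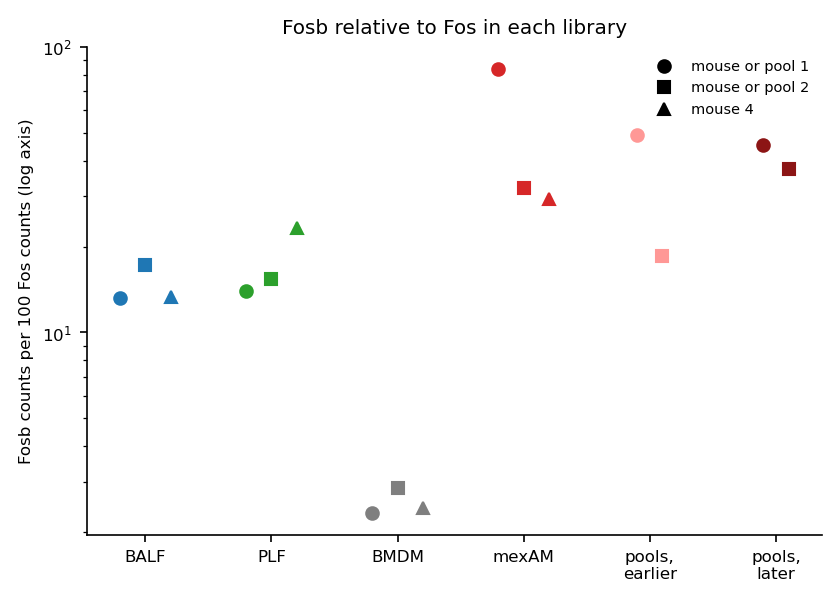
Fosb counts per 100 Fos counts in each library, on a log axis, by group; symbols give the mouse or pool. The mexAM libraries lie between 29.3 and 83.7, the BALF libraries between 13.2 and 17.3 and the BMDM libraries between 2.33 and 2.85.

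Jun, the founding JUN protein (ENSMUSG00000052684, chromosome 4, 95049034 to 95052222, minus strand), stood at 286.9, 304 and 591 CPM in the PLF libraries and at 129, 145 and 129 in BMDM, for mice 1, 2 and 4. BALF held 288.4, 299 and 178 CPM and mexAM 209.7, 294 and 116. BMDM formed the tightest group, and PLF did not overlap it, whereas neighbours in the order PLF, BALF, mexAM, BMDM all overlapped. Jun was higher in PLF than in BMDM (+1.59 ± 0.34, adjusted p = 0.00186) and in BALF than in BMDM (+1.21 ± 0.34, adjusted p = 0.0111). It was not called between BALF and mexAM (+0.49 ± 0.33, adjusted p = 0.285).

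Junb, a JUN protein that restrains Jun in many settings and is induced in activated macrophages (ENSMUSG00000052837, chromosome 8, 84974484 to 84978718, minus strand), was at 444, 882 and 1084 CPM in PLF. The other groups of mice were lower, with 264, 300.3 and 325 CPM in BALF, 245, 205 and 232 in BMDM and 224, 114 and 315 in mexAM, so PLF overlapped none of them. Junb was higher in PLF than in BMDM (+1.84 ± 0.32, adjusted p = 0.000254), than in mexAM (+1.84 ± 0.32, adjusted p = 0.000128) and than in BALF (-1.18 ± 0.31, adjusted p = 0.00655 for BALF minus PLF). BALF minus mexAM gave +0.66 ± 0.31 (adjusted p = 0.121), which passed without mexAM of mouse 4 (+0.99, adjusted p = 0.0323) and without a filter on low counts (adjusted p = 0.0278).

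Jund, the JUN protein that is usually expressed without a stimulus (ENSMUSG00000071076, chromosome 8, 70698949 to 70700616, plus strand), varied least. It was at 209, 173 and 255 CPM in PLF and 139, 158 and 124 in BALF. Levels in culture were 108, 89.8 and 137 CPM in BMDM and 173, 139 and 118 in mexAM. Jund was higher in PLF than in BMDM by +0.97 ± 0.22 (adjusted p = 0.0023), the smallest of the 9 called changes in that comparison, and BALF and mexAM overlapped (+0.17 ± 0.22, adjusted p = 0.585). The call for BALF against BMDM (+0.61 ± 0.22, adjusted p = 0.0389) ended under 6 of 12 alternatives: with library totals as the scaling (+0.33, adjusted p = 0.252), with DESeq2 (+0.59, adjusted p = 0.0506) and without BALF or BMDM of mouse 1 or 2 (adjusted p = 0.0921 to 0.164). That for PLF against mexAM (+0.53 ± 0.22, adjusted p = 0.0465) ended under 6 as well, among them the replicate block (+0.52, adjusted p = 0.0641), and it was lowest without mexAM of mouse 4 (+0.37, adjusted p = 0.202). The call of Jun in the same comparison (+0.88 ± 0.33, adjusted p = 0.0349) ended without PLF of mouse 4 (+0.47, adjusted p = 0.231), mexAM of mouse 1 (+0.91, adjusted p = 0.0755) or mexAM of mouse 4 (+0.56, adjusted p = 0.132).

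Junb and Dusp1 each overlap a coding gene on the opposite strand in the annotation, Prdx2 with 2174 counts against 9060 for Junb and Ergic1 with 1677 against 8001 for Dusp1 over all libraries. The strand setting of the counting is not given in the sources used here. Reads in these overlaps are uncertain.

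Atf3, a stress-induced relative of the AP-1 factors (ENSMUSG00000026628, chromosome 1, 191170296 to 191218039, minus strand), was at 301, 329.8 and 361 CPM in BALF and 439, 252 and 505 in PLF, for mice 1, 2 and 4. It was at 92.9, 127 and 129 CPM in mexAM and 148, 129 and 260.5 in BMDM. BALF lay above both cultured groups in every library, while BALF and PLF overlapped. Atf3 was higher in BALF than in mexAM (+1.71 ± 0.29, adjusted p = 0.000355) and in PLF than in BMDM (+1.20 ± 0.29, adjusted p = 0.0035), and the difference between these changes was not called (+0.51 ± 0.40, adjusted p = 0.407).

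Nr4a1, a nuclear receptor (NUR77) induced early in macrophages and lymphocytes (ENSMUSG00000023034, chromosome 15, 101254269 to 101274795, plus strand), was at 36.6, 42.6 and 50.2 CPM in BALF and 33.1, 99.9 and 135 in PLF. In mexAM it was at 2.32, 2.92 and 14.8 CPM (4, 6 and 36 counts) and in BMDM at 9.67, 8.91 and 10.4 (20, 13 and 17 counts). Every fresh library lay above every cultured library of single mice, which held for Nr4a1 alone among the 10 members and for 2.3% of all genes tested. Its log2 changes had the greatest size of the members in both pairs, +2.80 ± 0.56, adjusted p = 0.00207 for BALF minus mexAM and +3.22 ± 0.54, adjusted p = 0.000318 for PLF minus BMDM. Without mexAM of mouse 4, the highest library of its group, the BALF minus mexAM change was larger (+4.16, adjusted p = 8.99e-05), and mexAM was then called lower than BMDM (-1.73, adjusted p = 0.0469 against -0.37 ± 0.64, adjusted p = 0.671 with it). PLF minus mexAM was +3.59 ± 0.54, adjusted p = 6.98e-05, and +4.94, adjusted p = 2.74e-06 without that library. The test of the difference between the pairs was not passed (-0.41 ± 0.80, adjusted p = 0.77).

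Dusp1, the phosphatase that turns off p38 and JNK (ENSMUSG00000024190, chromosome 17, 26505590 to 26562128, minus strand), was at 725, 949 and 545 CPM in BALF against 196, 276 and 178 in mexAM. PLF held 178, 386 and 639.9 CPM and BMDM 188, 129 and 192. BALF was the highest group and did not overlap the cultured groups, and PLF of mouse 1 was inside the range of BMDM. Dusp1 was higher in BALF than in mexAM (+1.96 ± 0.36, adjusted p = 0.000899) and in PLF than in BMDM (+1.26 ± 0.36, adjusted p = 0.0118), though the latter call ended without PLF of mouse 4 (+0.76, adjusted p = 0.0812) and without BMDM of mouse 2 (+1.10, adjusted p = 0.0531). It was the 1 member called higher in BALF than in PLF (+1.14 ± 0.35, adjusted p = 0.0176), a call that ended with library totals as the scaling (+0.88, adjusted p = 0.0642), without BALF of mouse 2 (+0.94, adjusted p = 0.0711) and without PLF of mouse 2 (+1.08, adjusted p = 0.0619).

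Egr1, a zinc finger factor downstream of the ERK kinases and serum response factor (ENSMUSG00000038418, chromosome 18, 34859823 to 34864984, plus strand), set PLF apart from the other groups. PLF held 89.6, 311 and 356 CPM in mice 1, 2 and 4, and BALF held 34.8, 31.5 and 29.3. It was at 50.3, 35.7 and 65.0 CPM in BMDM and 47.0, 28.2 and 46.1 in mexAM. The lowest PLF library was above every other library of single mice, and mexAM overlapped both BALF and BMDM. In CPM all BALF libraries were below all BMDM libraries, but narrowly, with 34.8 in BALF of mouse 1 and 35.7 in BMDM of mouse 2. CPM leave out the TMM factors, which were 0.868 and 1.05 for these libraries. BALF minus BMDM was not called (-0.37 ± 0.41, adjusted p = 0.525). Egr1 was higher in PLF than in BMDM (+2.33 ± 0.39, adjusted p = 0.00023), mexAM (+2.58 ± 0.39, adjusted p = 5.03e-05) and BALF (-2.70 ± 0.41, adjusted p = 8.11e-05 for BALF minus PLF). Between BALF and mexAM it was not called (-0.13 ± 0.41, adjusted p = 0.857), and the difference between both pairs was -2.46 ± 0.56 (adjusted p = 0.00538).

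Ier2, a small nuclear protein of the early growth response (ENSMUSG00000053560, chromosome 8, 84661331 to 84662852, minus strand), was at 23.4, 18.3 and 28.6 CPM in BALF and 51.1, 64.7 and 51.1 in mexAM, with no overlap. It was at 35.7, 90.1 and 120.2 CPM in PLF and 41.6, 32.9 and 23.9 in BMDM. Thus it was lower in fresh lung lavage than in the cultured alveolar cells (-1.03 ± 0.35, adjusted p = 0.0366) and higher in fresh peritoneal lavage than in BMDM (+1.34 ± 0.33, adjusted p = 0.00465). The lung call ended without BALF of mouse 1 (-1.02, adjusted p = 0.0952) or mouse 2 (-0.88, adjusted p = 0.124) and without mexAM of mouse 1 (-1.07, adjusted p = 0.0598) or mouse 2 (-0.88, adjusted p = 0.103). The difference between the pairs was -2.36 ± 0.48 (adjusted p = 0.00207). The call of mexAM above BMDM (+0.84 ± 0.33, adjusted p = 0.0492) ended under 10 of 12 alternatives (adjusted p up to 0.159).

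**Figure D3:**
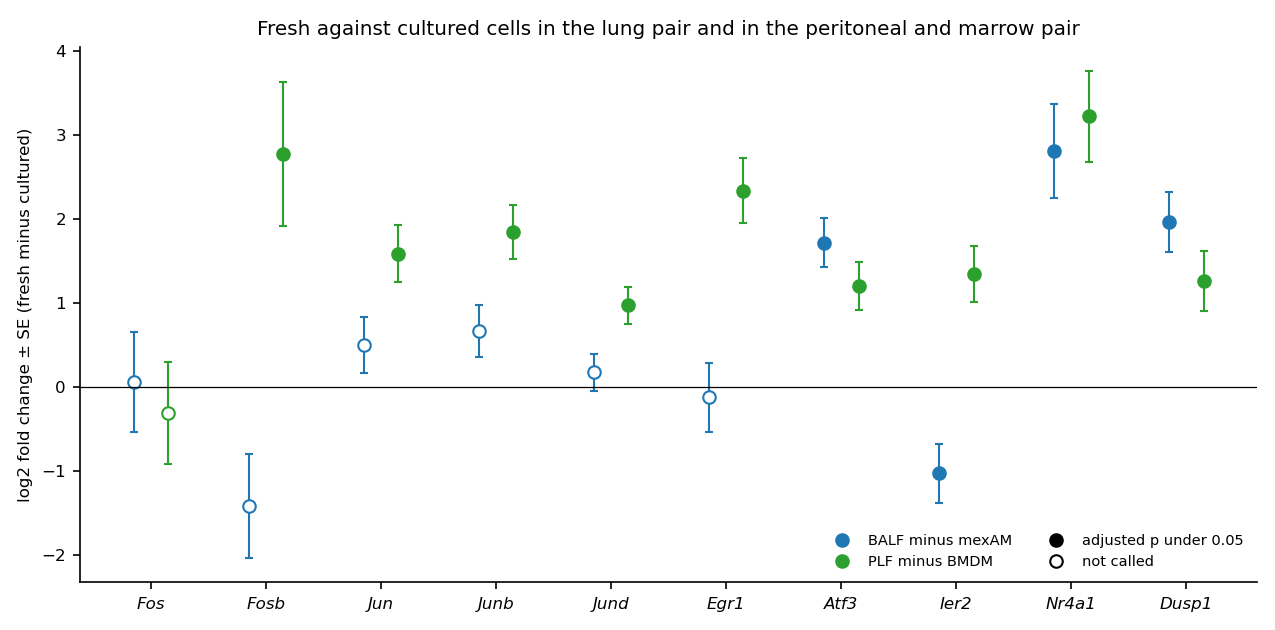
Log2 fold change ± standard error of each member for BALF minus mexAM and PLF minus BMDM, with filled circles for adjusted p under 0.05. Atf3, Nr4a1 and Dusp1 are filled above 0 in both comparisons, whereas Fosb (-1.42 against +2.77) and Ier2 (-1.03 against +1.34) lie on opposite sides of 0.

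The test of whether the fresh against cultured change differed between the lung pair and the other pair called 3 of 10 members, Fosb (-4.19 ± 1.06, adjusted p = 0.0138), Egr1 and Ier2, all lower in the lung pair, while 11.6% of all genes were called higher and 9.33% lower. Fosb lost this call without a filter on low counts (-4.20, adjusted p = 0.0782) and kept it without PLF of mouse 4, at a smaller size (-2.13, adjusted p = 0.0206). Without that library Fos was called in the other direction (+1.86, adjusted p = 0.0112). Junb (-1.18, adjusted p = 0.0682), Jund (-0.79, adjusted p = 0.0822) and Jun (-1.09, adjusted p = 0.119) were also negative but did not pass. They were called under 4, 3 and 2 of 18 alternatives. With all libraries Nr4a1 (-0.41) was negative and Fos (+0.37), Atf3 (+0.51) and Dusp1 (+0.70) positive, none of them called. In the pairs the fresh and cultured cells differ in more than culture, since BMDM do not derive from peritoneal cells, so origin and culture cannot be told apart in PLF minus BMDM. Between the fresh groups, BALF minus PLF called 1 member higher (Dusp1) and 3 lower (Junb, Egr1 and Ier2, the last at -1.52 ± 0.35, adjusted p = 0.00233), against 19.5% and 20.8% of all genes. Between the cultured groups, mexAM minus BMDM called 2 higher (Fosb and Ier2) and 0 lower, against 21.5% and 23%. BALF minus BMDM gave 6 higher and 0 lower (background 18.2% and 19.3%). Besides Fosb, Jun and Jund these were Dusp1 (+2.40 ± 0.37, adjusted p = 9.98e-05), Nr4a1 (+2.43 ± 0.55, adjusted p = 0.00319) and Atf3 (+1.17 ± 0.29, adjusted p = 0.00406), while Fos (+1.04 ± 0.60, adjusted p = 0.205), Junb (+0.67 ± 0.31, adjusted p = 0.107), Egr1 and Ier2 (-0.19 ± 0.36, adjusted p = 0.727) were not called. PLF minus mexAM gave 6 higher (Jun, Junb, Jund, Egr1, Atf3 and Nr4a1) and 1 lower, Fosb (background 29.6% and 28.4%). Atf3 was at +1.75 ± 0.29, adjusted p = 8.51e-05 there, and Fos (-1.29 ± 0.61, adjusted p = 0.0868) and Ier2 (+0.50 ± 0.32, adjusted p = 0.192) did not pass. Dusp1 narrowly missed (+0.82 ± 0.35, adjusted p = 0.0571) and was called under 7 of 12 alternatives, DESeq2 among them (+0.87, adjusted p = 0.0375). Comparisons that use the same group share its libraries and are not independent.

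In the pool cultures the levels of most members were higher at the later passage of both pools, but the edgeR test called 0 of 10. Fos was at 100.2 CPM at passage 8 and 454 at passage 13 of pool 1, and at 236 at passage 5 and 528 at passage 10 of pool 2. Junb was at 89.6 CPM at passage 8 and 469 at passage 13 of pool 1, and at 143 at passage 5 and 344 at passage 10 of pool 2. Dusp1 was at 48.2 CPM at passage 8 and 154 at passage 13 of pool 1, and at 112 at passage 5 and 279.8 at passage 10 of pool 2. Each of these genes was higher later within both pools, as were 33.3% of the 10527 genes tested.

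Fosb went from 49.1 to 205 CPM in pool 1 and from 43.5 to 197 in pool 2, ratios of 4.18 (95% interval 3.10 to 5.74) and 4.54 (95% interval 3.24 to 6.54) within pools (exact binomial intervals, which cover counting error alone). Nr4a1 had 3 counts in each earlier library, 2.89 and 3.62 CPM, against 28.9 and 16.6 later, ratios of 9.98 (95% interval 3.20 to 50.3) and 4.59 (95% interval 1.48 to 23.0). For Nr4a1 the earlier libraries lay within the range of the 3 mexAM libraries, and the later ones above it. For Fosb the earlier libraries lay below the mexAM range (86.9 to 141 CPM) and the later ones above it. Atf3 and Ier2 were also higher later in both pools, with ratios of 2.46 (95% interval 1.86 to 3.28) and 1.28 (95% interval 1.00 to 1.65) for Atf3 and 1.72 (95% interval 0.992 to 3.11) and 1.70 (95% interval 1.01 to 3.04) for Ier2.

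Egr1 was lower at the later passage, from 39.5 to 14.8 CPM and from 70.1 to 30.9, ratios of 0.374 (95% interval 0.212 to 0.642) and 0.440 (95% interval 0.313 to 0.624). The ratios of Jund were 0.794 (95% interval 0.618 to 1.02) and 0.916 (95% interval 0.724 to 1.17), with both intervals spanning 1. Those of Jun lay on both sides of 1, at 0.801 (95% interval 0.618 to 1.04) in pool 1 and 1.72 (95% interval 1.32 to 2.29) in pool 2.

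In CPM, 7 members were higher later in both pools and 2 lower, beside 33.3% and 19.9% of the 10527 genes tested. At least 1.5-fold higher in both were 6 members and 7.69% of all genes, a fold chosen after the values were seen. The median change of the members was +1.05 and that of all genes 0.00. By edgeR 1 gene in all (0.0095%) was called, and 5 of 10 members had an unadjusted p under 0.05, as had 9% of all genes. The members with the lowest adjusted p were Junb (+1.73 ± 0.40, adjusted p = 0.195), Fosb (+2.04 ± 0.71, adjusted p = 0.449) and Nr4a1 (+2.67 ± 0.93, adjusted p = 0.445). DESeq2 called 1 member, Junb (+1.70, adjusted p = 0.0146), and 0.774% of all genes, with 4 of 10 members and 11.7% of genes at an unadjusted p under 0.05. The share of reads outside genes was 12.4% and 11.2% in pool 1 and 10.7% and 10.6% in pool 2, and depth was 1038002 and 1490455 counts in pool 1 and 827791 and 2884679 in pool 2, at the earlier and later passage. The part of depth in these differences was not tested.

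**Figure D4:**
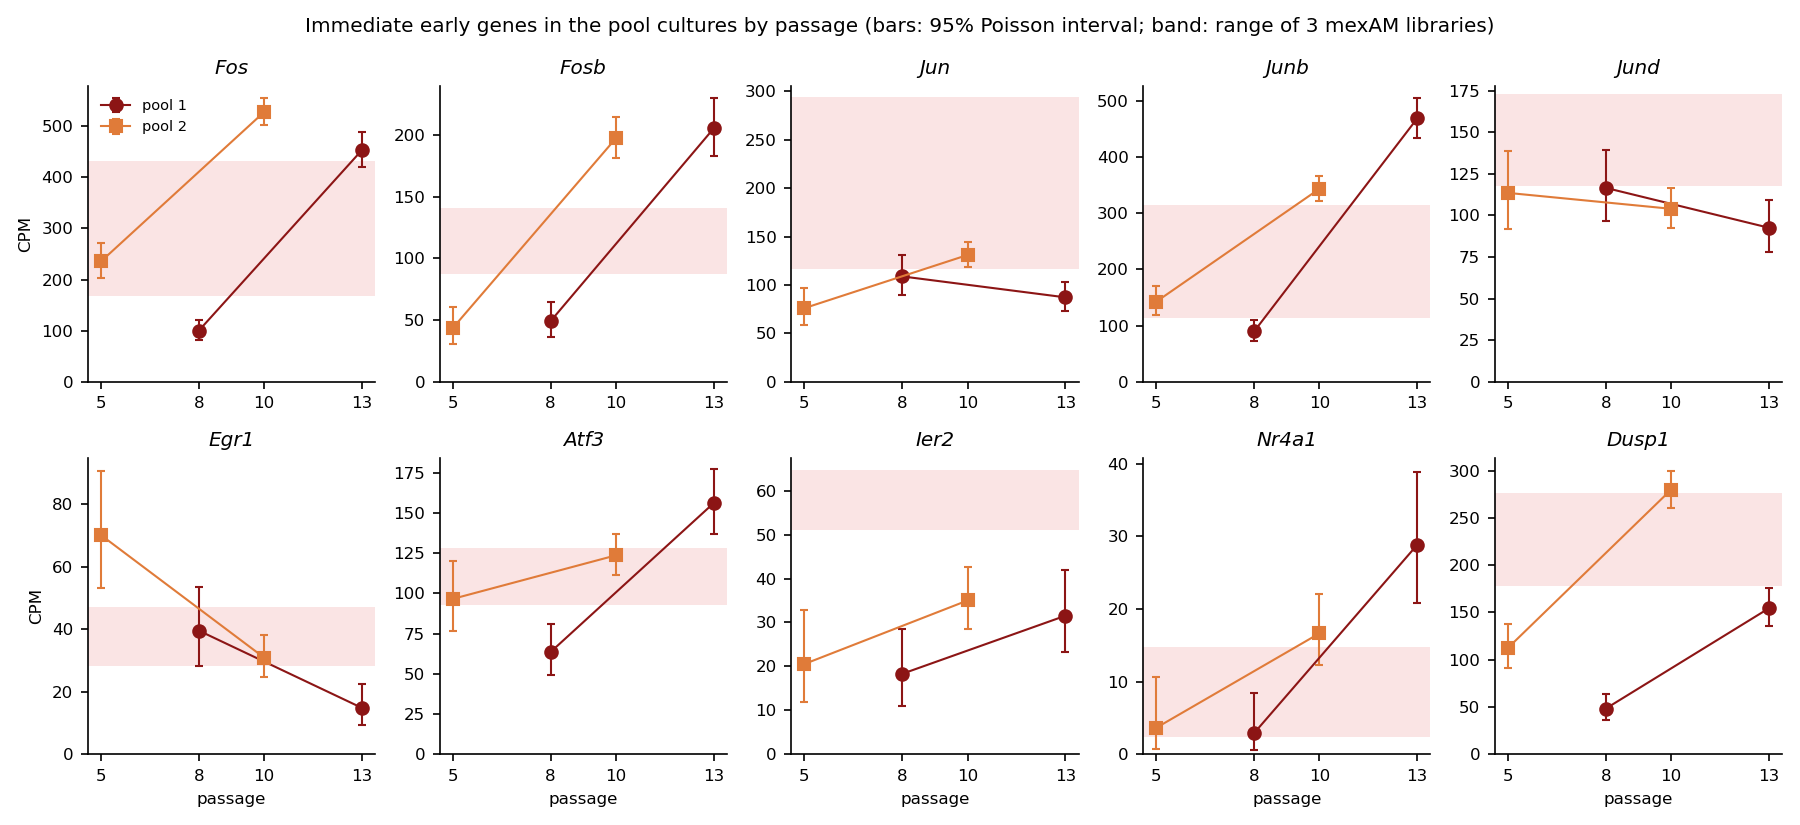
CPM of each member against passage in pool 1 and pool 2, with 95% Poisson intervals of the counts and the range of the 3 mexAM libraries as a band. Fos, Fosb, Junb, Nr4a1 and Dusp1 are higher at the later passage of both pools, and Egr1 is lower.

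With both passages of a pool summed, 0 of 10 members were called between pool cultures and mexAM by edgeR (background 0.698%), with 2 at an unadjusted p under 0.05, and 0 by DESeq2, with 3. The unadjusted share over all genes was 14.1% by edgeR and 12.6% by DESeq2, which called 1.72% of all genes. The widest differences were Nr4a1 (+1.16 ± 0.61, adjusted p = 0.412), Jun (-0.94 ± 0.37, adjusted p = 0.262) and Ier2 (-0.93 ± 0.35, adjusted p = 0.234). A sum of raw counts gives more weight to the deeper later library (1490455 against 1038002 counts in pool 1, 2884679 against 827791 in pool 2). It also cannot show departures from mexAM that go opposite ways at the earlier and later passage. Fosb, below the mexAM range earlier and above it later, was at +0.32 (adjusted p = 0.872) in the sum. BALF against the pools called 4 higher, Jun, Atf3, Nr4a1 and Dusp1, and 0 lower (background 12.4% and 13.6%). Atf3 (+1.68 ± 0.32, adjusted p = 0.000774) and Dusp1 (+2.25 ± 0.47, adjusted p = 0.00251) thus had in the pools the direction they had against mexAM, in a comparison that shares the BALF libraries. Dusp1 was at +2.92, adjusted p = 0.00434 without pool 2. The calls of Jun (+1.44 ± 0.38, adjusted p = 0.0111) and Nr4a1 (+1.64 ± 0.55, adjusted p = 0.0398) ended when either pool was left out, with Jun at +1.29, adjusted p = 0.107 without pool 1 and +1.60, adjusted p = 0.054 without pool 2, and Nr4a1 at +1.83, adjusted p = 0.122 and +1.43, adjusted p = 0.235. Leaving out any 1 BALF library also ended the call of Nr4a1 (adjusted p = 0.0592 to 0.0991). Fosb in BALF minus the pools was -1.74 ± 0.64 with adjusted p = 0.0641.

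Other genes of the response were taken from 7 lists, and the shares of all genes given above are their background. Among other AP-1, ATF and small MAF factors, 6 of 16 tested were higher and 0 lower (median +0.76) in BALF minus mexAM, led by Fosl1, a FOS relative (+3.34 ± 0.51, adjusted p = 0.00012), and the small MAF proteins Mafk (+1.72 ± 0.24) and Mafg (+1.60 ± 0.21). In PLF minus BMDM, 10 of 16 tested were higher and 2 lower (median +1.03), among them Fosl2 (+2.67 ± 0.28) and Atf4, the factor of the integrated stress response (+1.90 ± 0.26), while Creb5 was lower (-3.74 ± 0.43). Of the other EGR and NR4A genes and NAB corepressors, 5 of 8 passed the filter. In PLF minus BMDM 3 were higher, Egr2 (+3.70 ± 0.46), Nr4a2 (+3.49 ± 0.64) and Nr4a3 (12.3 to 57.9 CPM in PLF and 0 to 3.68 in BMDM), and in BALF minus mexAM the lowest adjusted p of the 5 was that of Nab2 (+0.82 ± 0.32, adjusted p = 0.0637), which did not pass, nor did Egr2 (+0.83 ± 0.39, adjusted p = 0.127). Egr2 was at 92.6 to 193 CPM in BALF, 102 to 255 in PLF, 74.0 to 96.4 in mexAM and 6.17 to 28.8 in BMDM. Of the groups of mice it was thus low in BMDM, unlike Egr1.

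Early feedback regulators were the longest list. In BALF minus mexAM 16 of 33 tested were higher and 2 lower (median +0.80), including Zfp36l1, which promotes mRNA decay (17.0 to 27.0 CPM in BALF and 0 to 0.487 in mexAM), Plk2 (+3.65 ± 0.57), Gadd45b (+3.08 ± 0.45) and Tnfaip3, an inhibitor of NF-kB signalling (+2.33 ± 0.51). In PLF minus BMDM 22 of 33 tested were higher and 4 lower (median +1.72), including the prostaglandin synthase Ptgs2 (+5.56 ± 0.53), Gadd45a (+3.55 ± 0.27), Plk3 (+3.52 ± 0.30) and Socs3 (+3.30 ± 0.43). Other early transcription factors were split in the lung pair, where 7 of 21 tested were higher and 5 lower (median +0.04): Klf4 (-2.02 ± 0.34), Klf2 (-2.25 ± 0.53), Id1 (-2.01 ± 0.35) and Maf (-2.37 ± 0.40) were lower in BALF. In PLF minus BMDM 13 of 21 tested were higher and 2 lower (median +1.66), with Hes1 (+4.79 ± 0.41), Bhlhe40 (+3.57 ± 0.41) and Csrnp1 (+3.22 ± 0.42) higher and Maf lower (-5.09 ± 0.30).

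Early cytokines and chemokines were higher for 5 of 16 and lower for 0 in BALF minus mexAM (median +1.54), among them Osm (+2.22 ± 0.38), Cxcl2 (+1.99 ± 0.47) and Tnf (+1.83 ± 0.40). They were higher for 11 of 16 and lower for 0 in PLF minus BMDM (median +2.87). Cxcl1, a neutrophil attractant, was at 111 to 425 CPM in PLF and 0.686 to 2.90 in BMDM, and Il6 at 25.3 to 166 CPM in PLF and 0 to 0.483 in BMDM. Heat shock genes, the other class of rapid stress genes, were higher for 10 of 15 tested and lower for 0 in each pair (medians +1.03 and +0.81). The chaperone Hspa1a was at 104 to 171 CPM in BALF, 12.5 to 40.9 in PLF, 1.84 to 2.06 in BMDM and 0 to 2.32 in mexAM, so BALF had the highest Hspa1a and PLF the highest Egr1. How Hspa1a reads were divided from those of its close copy Hspa1b is uncertain. The upstream kinases and factors showed no such lean, with 5 of 25 higher and 5 lower in BALF minus mexAM (median +0.17) and 5 higher and 7 lower in PLF minus BMDM (median +0.04). Srf itself was lower in BALF than in mexAM (-1.55 ± 0.47, adjusted p = 0.023).

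**Figure D5:**
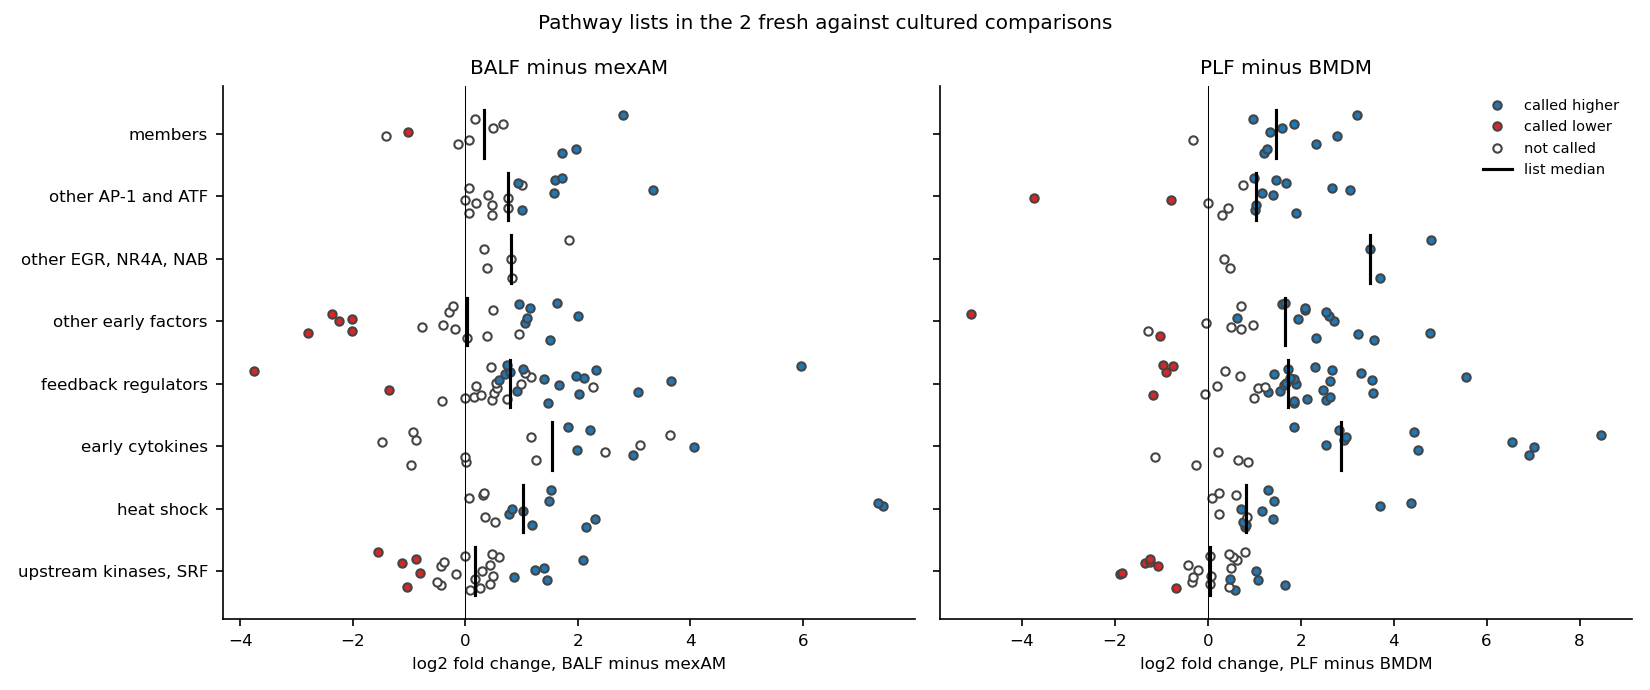
Log2 fold change of every tested gene of the members and the 7 lists for BALF minus mexAM (left) and PLF minus BMDM (right); blue and red circles are called higher and lower, open circles are not called, and bars are list medians. The members' median is +0.33 on the left and +1.46 on the right, and heat shock genes have 10 of 15 called higher in both panels.

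Likeness of pattern was measured as Pearson's r of log2 CPM over the 16 libraries, among 9020 other genes with at least 10 CPM in some group. The libraries share mice and pools and fall into groups by cell type, so r describes these libraries and no p is given. The genes most like the mean of the standardized members were Csrnp1 (0.92), Zfp36 (0.88), an mRNA decay factor, Eif1 (0.87), Ccrl2 (0.86) and Pmaip1 (0.86), and the other 5 of the nearest 10 were Sptan1, Tlnrd1, Nfkbib, Entr1 and Klf9 (0.84 to 0.85). The members themselves did not share 1 pattern: r was 0.90 between Junb and Nr4a1, 0.86 between Jun and Jund and 0.84 between Atf3 and Nr4a1, but -0.52 between Fos and Egr1 and -0.36 between Fosb and Egr1.

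For single members, the nearest genes of Fosb were Fzd8 (0.93), Klf4 (0.93) and Fkbp5 (0.92). Those of Junb were Csrnp1 (0.94), Ets2 (0.93) and Pde4b (0.92), and those of Nr4a1 were Btg1 (0.95), Gk (0.93) and Brd2 (0.91). Egr1 was nearest to H2-Eb2 (0.91), Fam129c (0.91) and Serpinb2 (0.91), and Atf3 to Uspl1 (0.92), Taf7 (0.92) and Spag9 (0.91). The nearest genes of the other members had r of at most 0.87: Abracl (0.84), Zc3h14 (0.83) and Pdcd2 (0.82) for Fos, Ttc19 (0.85), Sec63 (0.85) and Baz2b (0.85) for Jun, Phrf1 (0.86), Simc1 (0.86) and Cables2 (0.85) for Jund, Kdm4a (0.86), Snhg17 (0.85) and Klf2 (0.85) for Ier2, and Epcam (0.87), Pef1 (0.87) and Utp23 (0.85) for Dusp1.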

How the data were processed

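RNA of 16 libraries was made into QuantSeq 3' FWD libraries with a UMI module from 150 ng total RNA and 15 cycles of amplification and read as 65 bp single ends, per the labels' protocols. Raw read counts per Ensembl gene are what the authors deposited, made on GRCm38 (mm10) per the submitters' processing notes. For the aligner, counting program, strand setting and use of UMIs the sources used here give nothing. Counting intervals do not cover amplification. Reads outside genes (10.6% to 29.9%) and ambiguous reads (0.450% to 0.625%) stayed out of totals and tests. Symbols and positions are from GENCODE M21 (47224 of 47643 identifiers named) and promoters from RefSeq.

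edgeR 4.0.16 (R 4.3.3) was run with filterByExpr, TMM scaling and a robust quasi-likelihood fit, with Benjamini-Hochberg adjustment over all genes and a threshold of 0.05. The groups of single mice shared 1 fit (12 libraries, 10011 genes and 8 degrees of freedom left over), which gave 8 comparisons. Pool comparisons used 14 columns with the passages of a pool summed (10602 genes, 9 degrees), and passages a fit of 16 libraries (10527 genes, 10 degrees). A standard error is the log2 change divided by the root of F. DESeq2 1.42.0, other scalings, no filter, a replicate block and leaving out each library or pool were alternatives. The fit was tested on simulated counts.

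Replicates are mice 1, 2 and 4, the same animals across cell types per the labels. Deviations from group means of same-mouse libraries correlated at -0.118 to 0.220 (median -0.0207, 18 pairs). The members and lists were chosen with earlier results of these data known. All 10 members could be named in each comparison, and values are given for those called and for others where they bear on the text. Zfp36l1 and Nr4a3 are given as levels because a cultured group had at most a few counts. From a list, up to 4 called genes could be named, those of largest change whose higher group averaged 10 CPM or more, and for likeness the 3 nearest genes per member and 10 for their mean. Cxcl1, Il6 and Hspa1a levels follow that rule, as does Srf. Egr2 and Nab2 in BALF minus mexAM and the correlated pairs of members were chosen after their values were seen.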

Additional observations from a re-analysis of the deposited data

Results flagged for a closer look

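The change between fresh and cultured cells differed between the lung pair (BALF minus mexAM) and the other pair (PLF minus BMDM) for 3 members, by the test of the difference itself in edgeR. The log2 difference was -4.19 ± 1.06 for Fosb (adjusted p = 0.0138), -2.46 ± 0.56 for Egr1 (adjusted p = 0.00538) and -2.36 ± 0.48 for Ier2 (adjusted p = 0.00207). Over 18 alternatives the difference ran from -2.85 to -2.12 for Egr1 and from -2.71 to -1.97 for Ier2, each time with an adjusted p under 0.05. That of Fosb ran from -4.69 to -2.13, the latter without PLF of mouse 4 (-2.13, adjusted p = 0.0206), and it was not called without a filter on low counts (-4.20, adjusted p = 0.0782). Fosb was at 30.1 to 56.8 CPM in BALF and 86.9 to 141 in mexAM, and Ier2 at 18.3 to 28.6 and 51.1 to 64.7. Groups of 3 are too small for a search for single outlying libraries.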

How the results depend on the processing

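Of 138 recomputed counts of called members, 14 moved by more than 1.5 times. For mexAM minus BMDM the count of 2 became 1 with the DESeq2 test, DESeq2 size factors, library totals, the replicate block of mice and without Gm42418 and mitochondrial genes, and leaving out 1 library gave 1 to 3. The test of the difference between pairs gave 5 instead of 3 with library totals (3 to 4 leaving out a library), and BALF minus pools 2 to 3 instead of 4. Without a filter on low counts pool minus mexAM gave 2 instead of 0 and the later passage 2, where DESeq2 gave 1. The ranges over left-out libraries were 3 to 5 for BALF minus mexAM, 7 to 9 for PLF minus BMDM, 3 to 6 for BALF minus PLF, 5 to 6 for BALF minus BMDM, 5 to 8 for PLF minus mexAM, 7 to 8 for fresh minus cultured and 0 for both other pool comparisons. A lone pool or passage library was assumed to vary like the other groups. The replicate block also ended the calls of Fosb in PLF minus BMDM, Ier2 in mexAM minus BMDM and Jund in PLF minus mexAM (+0.52, adjusted p = 0.0641) and changed no other call of a member; a block of pools left 0 called between passages.

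Over all genes, the later passage called 1 gene, or 36 with DESeq2 and 80 without a filter, and pool minus mexAM 74, or 163, 380 and 135 with the replicate block, and 6 to 48 without 1 pool or mexAM of mouse 1 or 4. BALF minus pools called 2757, or 1660 and 1604 without pool 1 and pool 2. Library totals as the scaling moved the median of all genes to -0.22 in BALF minus mexAM, -0.27 in BALF minus PLF, -0.32 in BALF minus BMDM, -0.13 in fresh minus cultured, -0.17 in the difference of pairs and -0.20 in BALF minus pools. The share of calls that were higher then went from 49.4% to 32.6%, 48.4% to 33.1%, 48.5% to 30.5%, 49.2% to 37.2%, 55.5% to 44.1% and 47.6% to 32.3% in these comparisons.

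The sign turned for the following members. With library totals these were Fos (-0.14) and Jund (-0.027) in BALF minus mexAM and Junb (-0.046) and Egr1 (-0.025) in BALF minus pools. Junb in mexAM minus BMDM was -0.020 with DESeq2 size factors, -0.015 with DESeq2, -0.065 with library totals, -0.054 with the block, -0.0066 without Gm42418 and mitochondrial genes and -0.32 to +0.31 over left-out libraries. The ranges of the others over left-out libraries were as follows: in BALF minus mexAM Fos -0.22 to +0.45, in PLF minus BMDM Fos -1.80 to +0.14, in BALF minus PLF Jun -0.56 to +0.024 and Atf3 -0.30 to +0.15, in BALF minus BMDM Ier2 -0.36 to +0.0082, in fresh minus cultured Fos -0.87 to +0.10, Fosb -0.35 to +0.93 and Ier2 -0.041 to +0.33, in the difference of pairs Fos -0.083 to +1.86 and Nr4a1 -0.81 to +0.95, in BALF minus pools Fos -0.58 to +0.0046, Egr1 -0.12 to +0.55 and Ier2 -0.25 to +0.069, in pool minus mexAM Atf3 -0.11 to +0.091 and Dusp1 -0.97 to +0.17, and in later minus earlier passage Jun -0.38 to +0.70. The cause of these changes was not tested. At the lowest depth 1 count is 1.21 CPM, which limits Nr4a1 and Fosb where they had fewer than 10 counts.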
